A study of Mus musculus with 6 samples.

Results

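Acetylation of histone H3 (H3ac) was examined at 10 genes of citrate export and acetyl-CoA supply in mouse mesenchymal stem cells (MSCs), namely Slc25a1, Acly, Acss1, Acss2, Cs, Mpc1, Mpc2, Dlat, Acaca and Crat. A region of the deposited H3ac table was taken as a member where it overlapped the body of one of these genes extended by 5 kb on both sides, whatever its signal. This gave 16 of 24431 regions, of which 10 were promoter regions, lying within 1 kb of the 5′ end of the gene, and 6 were other regions. Each of the 10 genes had a promoter region, and that region covered the 5′ end itself. Over all protein-coding genes, 54.8% had a promoter region, and 9892 regions were promoter regions.

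Acetyl-CoA is the acetyl donor for histone acetylation, and it is largely made inside mitochondria, whose inner membrane it does not cross. Pyruvate enters through the carrier formed by Mpc1 and Mpc2 and is turned into acetyl-CoA by the pyruvate dehydrogenase complex, of which Dlat is the acetyltransferase subunit. Citrate synthase (Cs) joins acetyl-CoA with oxaloacetate, the citrate carrier Slc25a1 exports the citrate, and ATP citrate lyase (Acly) releases acetyl-CoA from it in the cytosol and nucleus. The acetyl-CoA synthetases Acss1, in mitochondria, and Acss2, in the cytosol and nucleus, make acetyl-CoA from acetate. Crat exchanges acetyl groups between CoA and carnitine, and Acaca uses cytosolic acetyl-CoA to make malonyl-CoA for fatty acid synthesis.

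H3ac was measured by CUT&RUN, a method that cuts the DNA around antibody-bound histones in permeabilised cells and sequences what is set free. There were 3 groups with 2 libraries each (6 in all). Mice aged 3 to 5 months gave the Young MSCs and mice aged 18 to 22 months the Old MSCs, neither of them treated. OldAcetate MSCs, from the same old age range, were given 5 mM sodium acetate during 3 days. Culture was at 2% oxygen with 10% FBS and 1% antibiotic throughout, and no genotype or strain is given. The labels do not say whether the 2 libraries of a group came from separate mice or cultures, so p-values measure only the spread between these libraries, which may be technical. The design asks whether H3ac differed with age and whether acetate altered it in old cells, here at the genes that supply the acetyl group.

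The values are in RPM, the reads in a region scaled to the total reads of the library. Library totals lay between 2163351 and 3039481 reads, and the share of a library that fell in the regions was 57.8 and 64.8% for Young, 45.9 and 49.9% for Old and 56.3 and 57.3% for OldAcetate. The 10 promoter regions held between 21 and 123 reads in a library, with a median of 56.5, where the counting error amounts to 13.3%. The 6 other regions held between 0 and 137 reads, with a median of 25. Promoter regions were listed for all 10 stromal marker genes examined and for none of the 4 endothelial ones. They were listed for 2 of 8 hematopoietic ones (Spi1 and Klf1) and not for Ptprc, the pan-leukocyte gene. The summed signal at those 2 was 29.0 and 34.7 RPM for Young, 23.6 and 25.5 for Old and 25.5 and 29.6 for OldAcetate, against 796 and 688, 591 and 560, and 726 and 720 RPM at the stromal ones. Both lists were lower in Old than in Young, like most regions, and the part of other cells in the results at the 10 genes was not tested. In a pool of cells, fewer cells carrying the mark and less of the mark per cell cannot be told apart. The share of a library that fell in the regions, lowest in Old, also sets the general level of RPM. Whether that share reflects H3ac or the working of the assay was not tested.

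The bases directly upstream of the start are shown for 5 genes whose regions are described below. Slc25a1 and Acly stand for the citrate route out of mitochondria, Acss2 for acetate use, Mpc1 for the promoter called lower in Old than in Young in RPM as given, and Acaca for an annotated start that lies far inside its gene. Whether transcription begins at that Acaca start was not tested. The sequences are RefSeq entries on GRCm38.p6, the mm10 assembly, read 5′ to 3′ on the strand of the gene. Slc25a1 is chr16:17928220-17928469 on the minus strand, Acly is chr11:100528001-100528250 on the minus strand, Acss2 is chr2:155517793-155518042 on the plus strand, Mpc1 is chr17:8283537-8283786 on the plus strand and Acaca is chr11:84195188-84195437 on the plus strand. Capitals mark the GC box GGGCGG, the CCAAT box CCAAT and the E-box CACGTG, each on either strand.
Slc25a1: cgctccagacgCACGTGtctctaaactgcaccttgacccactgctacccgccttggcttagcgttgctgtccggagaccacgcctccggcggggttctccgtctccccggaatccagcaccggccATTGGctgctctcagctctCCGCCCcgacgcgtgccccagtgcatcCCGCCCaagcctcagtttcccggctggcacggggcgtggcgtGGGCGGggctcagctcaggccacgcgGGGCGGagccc
Acly: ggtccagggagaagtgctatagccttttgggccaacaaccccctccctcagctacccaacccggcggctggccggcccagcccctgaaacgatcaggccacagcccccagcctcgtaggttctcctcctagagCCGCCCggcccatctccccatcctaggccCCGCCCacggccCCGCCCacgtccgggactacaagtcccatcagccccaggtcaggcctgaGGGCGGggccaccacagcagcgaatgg
Acss2: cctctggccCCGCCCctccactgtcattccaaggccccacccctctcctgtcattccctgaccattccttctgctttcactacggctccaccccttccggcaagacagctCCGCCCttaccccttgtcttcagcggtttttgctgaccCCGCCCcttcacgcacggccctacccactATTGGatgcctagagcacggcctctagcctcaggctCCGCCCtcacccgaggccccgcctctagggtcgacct
Mpc1: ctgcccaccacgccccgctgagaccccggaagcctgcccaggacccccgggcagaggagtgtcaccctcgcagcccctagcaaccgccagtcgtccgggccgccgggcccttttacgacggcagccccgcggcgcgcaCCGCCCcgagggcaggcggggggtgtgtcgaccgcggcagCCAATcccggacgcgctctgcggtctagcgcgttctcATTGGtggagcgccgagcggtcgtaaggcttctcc
Acaca: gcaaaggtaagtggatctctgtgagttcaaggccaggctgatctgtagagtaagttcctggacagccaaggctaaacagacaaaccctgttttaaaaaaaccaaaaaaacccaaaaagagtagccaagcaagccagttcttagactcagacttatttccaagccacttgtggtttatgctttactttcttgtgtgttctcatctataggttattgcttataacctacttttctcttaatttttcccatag

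The table of RefSeq promoters, each of 300 bases with 250 before the start, matched 9 of the 10 genes with 10 entries (Mpc1 has 2 starts), and Crat was not matched. A GC box stood in 9 of the 10 entries, against 35.7% of all 32851 promoters and 59.9% of the 14937 whose start lay in an H3ac region. Slc25a1, Acly and Acss2 each had 4 in the bases shown. A CCAAT box stood in 6 of 10 entries, with 37.4% of all promoters holding one. The Slc25a1 entry was the only one of the 10 with the E-box CACGTG, which 7.15% of all promoters hold. TATAAA (13.6% of all promoters), the sterol element TCACNCCAC (1.24%), the NRF1 element (4.60%) and the ERR element AAGGTCA (4.72%) were found in none of the 10, searched on both strands. The GC content was 39.7% with 1 CpG in the Acaca entry and between 58.7 and 73.7% in the others. The Acaca entry starts 65766 bp into the gene, in a region that holds exon 3 of the principal transcript, and it may not be a promoter. The median was 64.7% with 19 CpG over the 10 entries, 52.7% with 7 CpG over all promoters and 60.3% with 20 CpG over those whose start lay in an H3ac region. These are matches of letters in short windows, not sites shown to be bound.

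**Figure D1:**
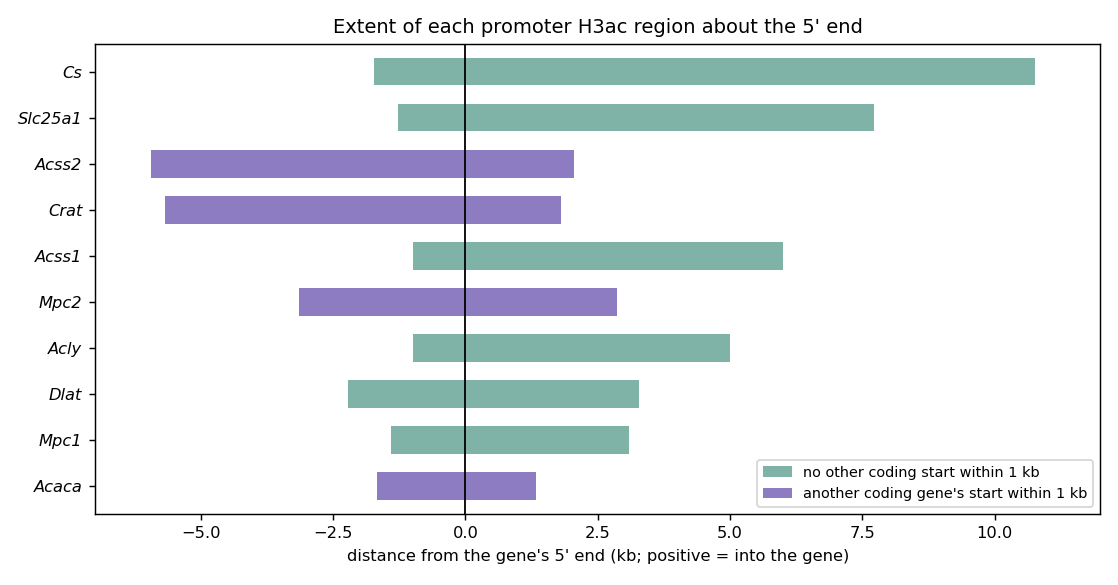
Extent of the 10 promoter H3ac regions, as distance in kb from the 5′ end of the gene (black line at 0) with positive values into the gene. Bars in purple are regions that also lie within 1 kb of the start of another protein-coding gene, which holds for 4 of the 10. The Cs region reaches 10766 bp into its gene and the Acss2 region 5947 bp upstream.

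The promoter regions differed in size and in what else they covered. The Cs region was the longest at 12500 bp and the Acaca region the shortest at 3000 bp, where the median over all promoter regions was 5500 bp. The Slc25a1 region (chr16:17920501-17929500, mm10) spanned 9000 bp and held all 9 exons of the gene. The Dlat region (chr9:50656501-50662000) held exons 1 to 4, the Acly region (chr11:100523001-100529000) exons 1 and 2, and those of Acss1 (chr2:150662501-150669500), Cs (chr10:128336001-128348500) and Mpc1 (chr17:8281501-8286000) exon 1. At 4 genes the region also took in the start of a neighbour, so its signal cannot be assigned to one gene. These were Acss2 with Ggt7 (chr2:155512001-155520000), Mpc2 with Dcaf6 (chr1:165457501-165463500), Crat with Ptpa (chr2:30414001-30421500) and Acaca with Tada2a (chr11:84128001-84131000). The name of each region includes a code of Y, O and AC, which may stand for the 3 groups but is not explained in the labels. It was AC+O+Y at 9 of the 10 promoter regions and AC+Y, without O, at Crat. Over all promoter regions, 91.5% had the code AC+O+Y and 6.59% had AC+Y.

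The level of H3ac was compared between genes as RPM per kb of region. Averaged over the 6 libraries, Mpc2 (4.47 RPM per kb) and Mpc1 (4.20) were highest, at the percentiles 94.7 and 91.1 of all promoter regions. Acly (3.62), Slc25a1 (3.45), Dlat (3.35), Acaca (3.09) and Acss2 (3.04) lay between the percentiles 76.5 and 48.1, around the median of 3.07 RPM per kb. Cs (2.68), Crat (2.57) and Acss1 (2.33) were lowest, at the percentiles 27.3, 20.6 and 10.1. The Mpc2 value includes signal at the Dcaf6 start.

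Within Young, the order per kb was Mpc1 (5.14 ± 0.44 RPM per kb, SD, n = 2), Mpc2 (4.86 ± 0.33), Acly (4.40 ± 0.83), Slc25a1 (4.02 ± 0.68), Dlat (3.73 ± 0.23), Acaca (3.03 ± 0.05), Acss1 (2.97 ± 0.32), Acss2 (2.91 ± 0.22), Cs (2.90 ± 0.18) and Crat (2.82 ± 0.67). The libraries of neighbours in this order overlapped at every step but that from Dlat to Acaca. In Old, Mpc2 (3.81 ± 0.71) came first, followed by Acaca (3.14 ± 0.13) and Mpc1 (3.12 ± 0.21), and Crat (1.79 ± 0.62) came last. In OldAcetate, Mpc2 (4.73 ± 0.59) and Mpc1 (4.35 ± 0.14) were again highest, and Acss1 (2.05 ± 0.63) was lowest. The plot of RPM per kb shows that the spread between the 2 libraries of a group was often as wide as the step to the next gene.

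**Figure D2:**
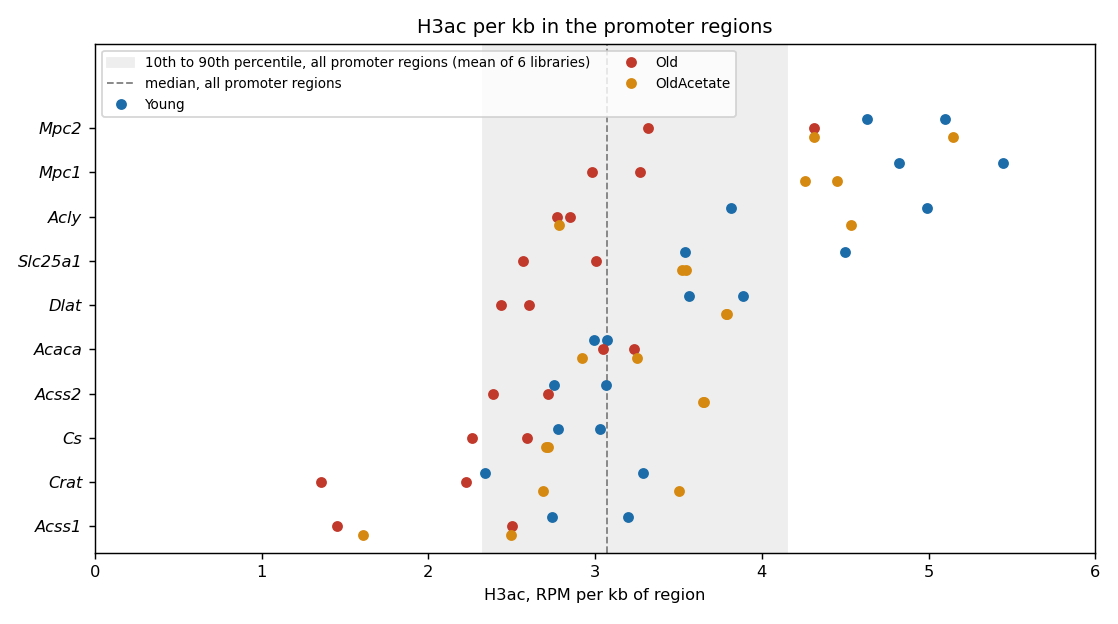
H3ac in RPM per kb of region (x axis) at the promoter region of each gene, 1 point per library and coloured by group. The grey band is the 10th to 90th percentile of all 9892 promoter regions (2.33 to 4.15) and the dashed line their median of 3.07. Mpc2 and Mpc1 sit at the upper end and Acss1 and Crat at the lower.

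The values of each gene follow in RPM per region, in the order of the pathway. The Mpc1 promoter had 21.7 and 24.5 RPM for Young, 13.4 and 14.7 for Old and 19.2 and 20.0 for OldAcetate. Both Old libraries lay below the other 4, and both OldAcetate libraries lay below Young. Its partner Mpc2 had 30.6 and 27.8 RPM for Young, 25.9 and 19.9 for Old and 25.9 and 30.9 for OldAcetate. Old was below Young, while OldAcetate overlapped both groups. Dlat, of the pyruvate dehydrogenase complex, had 21.4 and 19.6 RPM for Young, 13.4 and 14.3 for Old and 20.8 and 20.9 for OldAcetate. Old stood apart below both other groups, which overlapped each other. Cs had 37.8 and 34.7 RPM for Young, 32.4 and 28.2 for Old and 33.9 and 33.8 for OldAcetate, again with Old lowest and Young highest but with small steps.

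At the citrate carrier Slc25a1, the values were 40.5 and 31.9 RPM for Young, 23.1 and 27.0 for Old and 31.9 and 31.7 for OldAcetate. Old was lowest, and Young replicate 2 was level with OldAcetate. The exact 95% Poisson interval of Young replicate 1 ran from 33.6 to 48.3 RPM, and such intervals cover counting error only. Acly, the next step, had 29.9 and 22.9 RPM for Young, 16.6 and 17.1 for Old and 27.2 and 16.7 for OldAcetate. Old lay below Young, and the OldAcetate libraries differed widely from each other, 1 lying within Young and 1 within Old.

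The groups were ordered differently at the acetate enzymes. Acss1 had 22.4 and 19.2 RPM for Young, 10.2 and 17.5 for Old and 17.5 and 11.3 for OldAcetate, so that both groups of old cells lay below Young and overlapped one another. Acss2 had 22.0 and 24.5 RPM for Young, 21.7 and 19.1 for Old and 29.2 and 29.2 for OldAcetate. It was the single one of the 16 regions at which both OldAcetate libraries were above the other 4 in RPM as given. That pattern was found at 5.99% of all regions and 8.73% of promoter regions. Crat had 24.7 and 17.6 RPM for Young, 10.2 and 16.7 for Old and 20.2 and 26.3 for OldAcetate, with Old lowest and a wide spread in every group. The Acaca promoter region had 9.21 and 8.99 RPM for Young, 9.71 and 9.15 for Old and 9.74 and 8.76 for OldAcetate, and the groups overlapped in both comparisons with OldAcetate and in that of Old with Young.

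**Figure D3:**
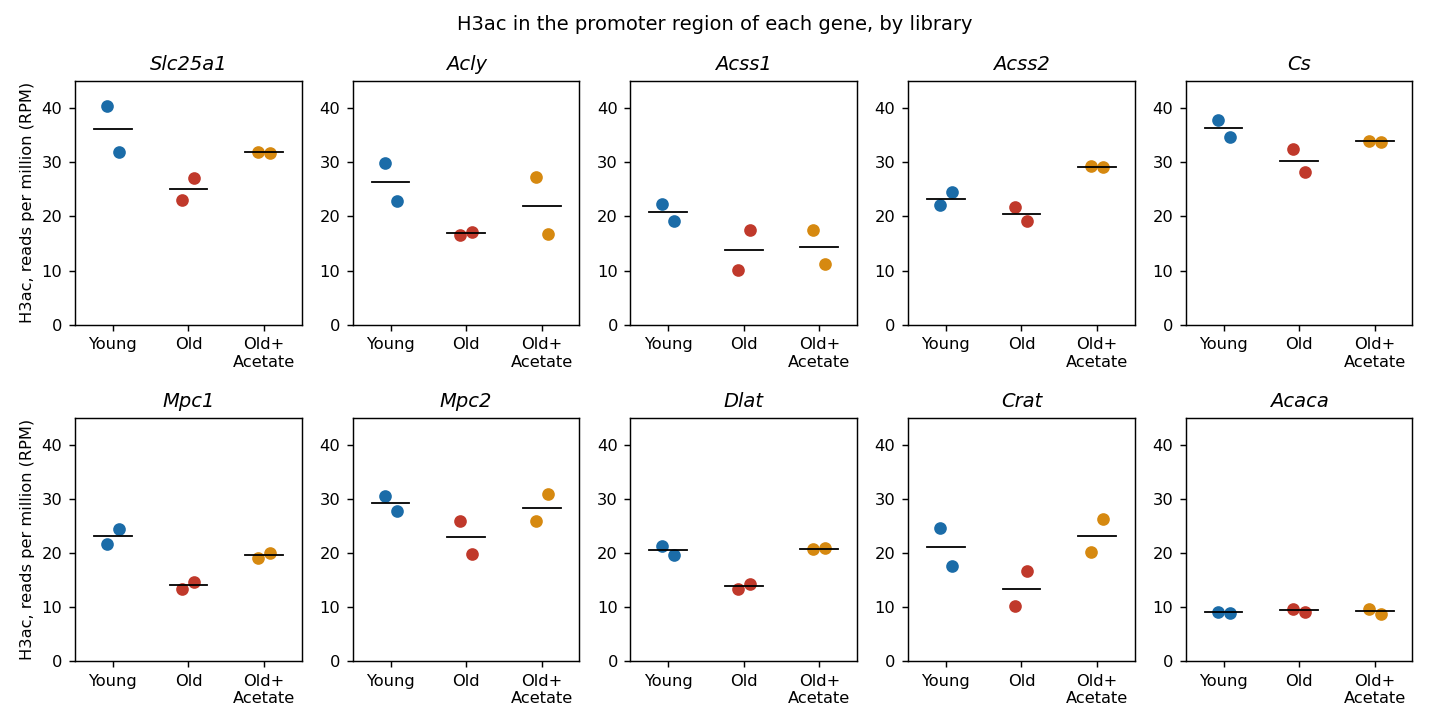
H3ac in RPM (y axis, from 0) at the promoter region of each of the 10 genes, 1 point per library, with a line at the mean of each group of 2. Old lies below Young without overlap at 9 of the 10 regions, beside 65.7% of all promoter regions. The exception is the Acaca region at the 5′ end of the gene, where its principal transcript does not start. Both OldAcetate libraries lie above all others at Acss2 (29.2 RPM), as at 8.73% of all promoter regions.

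Differences between groups were tested by limma over all 24431 regions, with Benjamini-Hochberg adjustment at 0.05, and are given on 2 scales of log2(RPM + 0.5). On the scaled values the shift shared by all regions was taken out of each library, so that a difference is relative to the typical region. On the values as given that shift remains. It was -0.35 (log2) for Old vs Young, 0.24 for OldAcetate vs Old and -0.11 for OldAcetate vs Young, as the median over all regions. Each pair of comparisons shares a group of libraries, so their values are not independent of each other.

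In Old against Young, H3ac in RPM as given was lower at every promoter region of the pathway but that of Acaca, much as at other promoters, and the pyruvate carrier subunit Mpc1 was the promoter whose fall passed the test. The Acaca promoter region lies at the 5′ end of the gene, where its principal transcript does not start. The Acaca region of 17000 bp, described below, was lower in Old without overlap in RPM as given, as were 60.2% of all regions. It was not called (-0.30, SE 0.18, adjusted p = 0.220 by limma), and on the scaled values it was at 0.05 (SE 0.15, adjusted p = 0.985). Relative to all regions, no gene of the 10 passed the test. In RPM as given, Mpc1 fell by 0.70 on the log2 scale (SE 0.23, adjusted p = 0.0409 by limma), where 11.2% of all promoter regions were called lower. Over the alternatives the adjusted p for Mpc1 reached 0.999, and with values as given it lay between 0.0678 and 0.222 when any 1 of the 6 libraries was left out. With edgeR on the recovered reads and no scaling, Mpc1 (-0.70, adjusted p = 0.0431) and Acly (-0.66, adjusted p = 0.0434) were called. That fit called 2517 of all 24431 regions lower.

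The 9 promoter regions without overlap between Old and Young compare with 65.7% of all promoter regions that were lower without overlap. The median difference of the 10 promoter regions was -0.53 in RPM as given, beside -0.36 for all promoter regions. Mpc1 was followed by Crat (-0.65, SE 0.24, adjusted p = 0.0555), Acly (-0.62, SE 0.22, adjusted p = 0.0554), Acss1 (-0.62, SE 0.25, adjusted p = 0.0861), Dlat (-0.55, SE 0.23, adjusted p = 0.0960) and Slc25a1 (-0.51, SE 0.19, adjusted p = 0.0638) in the limma fit. Mpc2 (-0.35), Cs (-0.26) and Acss2 (-0.19) lay at or above the shift of all regions, and Acaca was at 0.05. The code of the Crat region lacks O. If it names the groups in which a region was found, a low Old value is part of how Crat was listed. Of the regions with its code, AC+Y, 67.5% were lower in Old without overlap and 11.3% were called lower in RPM as given. Leaving out 1 library moved the values as given to between -0.999 and -0.31 for Crat and between -0.99 and -0.24 for Acss1. The lower end came without Old replicate 2 (adjusted p = 0.0284 and 0.0442 by limma, where 2.01% of all regions were called lower) and the upper end without Old replicate 1. For Acly the range was -0.81 to -0.43 and for Slc25a1 -0.68 to -0.34, from the omission of Young replicate 2 and Young replicate 1.

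On the scaled values the same comparison gave 0 called regions among the 16, where 0.00819% of all regions (2, both higher) were called and 1354 (2.88% of regions higher and 2.66% lower) passed an unadjusted p of 0.05, none of the 16 among them. edgeR with its RLE scaling also called 0 of the 16, and 5 of all regions. The scaled differences of the 10 promoter regions had a median of -0.18, beside -0.01 for all promoter regions. Mpc1 was at -0.35 (SE 0.21, adjusted p = 0.907), Crat at -0.30 (SE 0.23), Acly at -0.27 (SE 0.21), Acss1 at -0.26 (SE 0.25), Dlat at -0.20 (SE 0.21) and Slc25a1 at -0.16 (SE 0.17, adjusted p = 0.950). Mpc2 (-0.00), Cs (0.09), Acss2 (0.16) and Acaca (0.40, SE 0.29) were at 0 or higher. Relative to all regions, Acly, Mpc1 and Dlat were lower without overlap (17% of all promoter regions) and Cs and Acaca higher without overlap (16.8%).

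**Figure D4:**
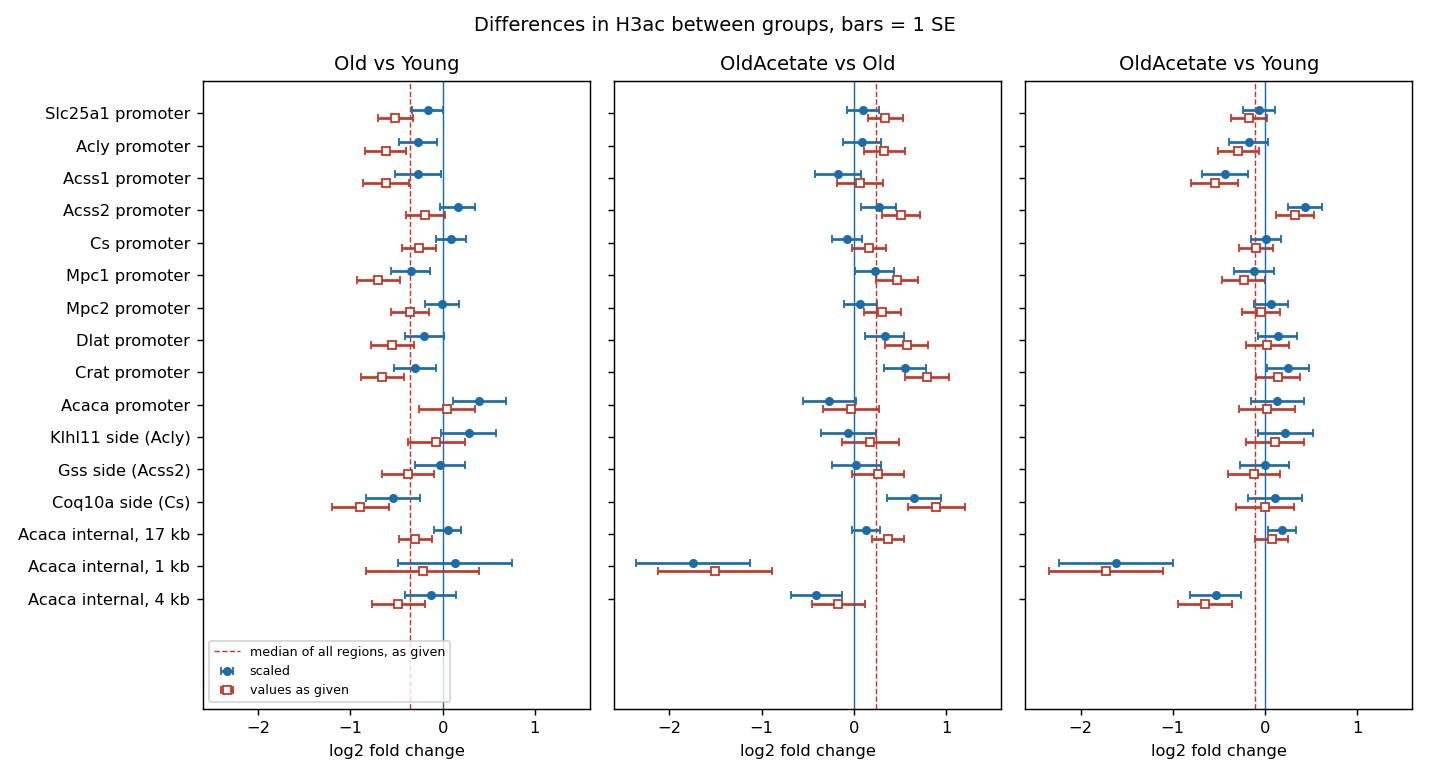
Log2 fold change of H3ac (x axis, log2(RPM + 0.5)) for the 16 regions in the 3 comparisons, with bars of 1 SE from limma. Filled circles are scaled values and open squares are values as given, whose median over all regions is the dashed line (-0.35, 0.24 and -0.11). In Old vs Young, every circle lies within 2 SE of 0, with Mpc1 at -0.35 and Acaca at 0.40.

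In OldAcetate against Old, H3ac in RPM as given was higher without overlap at 6 of the 10 promoter regions (Slc25a1, Acss2, Cs, Mpc1, Dlat and Crat), beside 58.6% of all promoter regions. No region of the 16 was called on either scale, where 0.311% of all regions were called higher with the values as given and 0 (of 24431) when scaled (1524 at an unadjusted p under 0.05, and 0 called by edgeR with RLE factors). The median difference of the 10 was 0.34 in RPM as given and 0.10 scaled, beside 0.29 and 0.05 over all promoter regions. Crat, the carnitine acetyltransferase, was at 0.80 as given (SE 0.24, adjusted p = 0.0912 by limma) and 0.56 scaled (SE 0.23, adjusted p = 0.768). Without Old replicate 2, the value as given at Crat was 1.14 with an adjusted p of 0.0186 (0.422% of all regions were called higher), without Old replicate 1 it was 0.45, and its adjusted p over the other alternatives ran up to 0.999. The code of this region lacks O. If the code names the groups in which a region was found, a low Old value is part of what gave the region its code, so its differences from Old are given as a description. Of the 2964 regions with the code AC+Y, 57% were higher in OldAcetate than in Old without overlap, with a median difference of 0.40 as given.

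After Crat came Dlat (0.33 scaled, SE 0.21), Acss2 (0.27, SE 0.19) and Mpc1 (0.23, SE 0.21), all 3 higher without overlap relative to all regions, as were 22.3% of promoter regions. Slc25a1 was at 0.10 scaled (SE 0.17, adjusted p = 0.964) and 0.34 as given (SE 0.19, adjusted p = 0.331). Acly (0.09, SE 0.21), Mpc2 (0.07, SE 0.18), Cs (-0.08, SE 0.16), Acss1 (-0.17, SE 0.25) and Acaca (-0.27, SE 0.29) lay within their errors of 0. Cs and Acaca were lower without overlap on the scaled values, beside 11.6% of promoter regions.

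In OldAcetate against Young, acetate-treated old cells stood above Young at Acss2 and below it at Acss1, Cs and Mpc1 in RPM as given, in each case without overlap (10.3% of promoter regions were higher and 23.6% lower in this way). None of the 16 regions was called on either scale, where 0 of 24431 regions were called by limma (1242 scaled and 1490 as given at an unadjusted p under 0.05) and 0 by edgeR with or without RLE factors. Acss2, the cytosolic and nuclear acetate enzyme, was at 0.44 scaled (SE 0.19, adjusted p = 0.964) and 0.32 as given (SE 0.21, adjusted p = 0.859). Acss1, its mitochondrial counterpart, was at -0.43 scaled (SE 0.25) and -0.55 as given (SE 0.25, adjusted p = 0.796). Without OldAcetate replicate 1 it was -0.73 scaled and -0.85 as given, and without OldAcetate replicate 2 it was -0.14 and -0.24. Slc25a1 was at -0.06 scaled, Acly at -0.18, Mpc1 at -0.12 and Cs at 0.01. On the scaled values Acss2, Dlat and the Acaca promoter were higher than Young without overlap, beside 23.9% of promoter regions. Acss1 was lower without overlap, beside 12.3%, and Cs and Mpc1 overlapped with Young. The median of the 10 was 0.04 scaled and -0.07 as given, beside 0.05 and -0.06 over all promoter regions.

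Both Old libraries were below the other 4 at 6 of the 10 promoter regions in RPM as given (Slc25a1, Acss2, Cs, Mpc1, Dlat and Crat), beside 47.2% of all promoter regions. The code of Crat lacks O, so its low Old value may be part of how the region was listed. On the scaled values this held for Mpc1 and Dlat, beside 9.02% of promoter regions. Both OldAcetate libraries were above the other 4 on the scaled values at 3 of the 16 regions, beside 6.89% of all regions. These were Acss2, Dlat and the Acaca region of 17000 bp. OldAcetate was below the other 4 libraries at 2 of the 16 (the Acaca regions of 1000 and 4000 bp), beside 7.45% of all regions. 

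Within a library, the ratio of 2 regions does not depend on the scaling, and 3 such ratios were taken after the values were seen. The ratio of Acss2 to Acss1 RPM was 0.985 and 1.28 for Young, 2.14 and 1.09 for Old and 1.67 and 2.59 for OldAcetate. OldAcetate was above Young without overlap, by 0.87 on the log2 scale, and Old overlapped both. How often other pairs of regions separate in this way was not tested, and the Acss2 value includes signal at the Ggt7 start. An exact permutation test (two-sided) gave p = 0.333, its minimum with 2 libraries against 2, so this design cannot reach 0.05. For Mpc1 to Mpc2 the ratio was 0.710 and 0.882 for Young, 0.518 and 0.740 for Old and 0.740 and 0.649 for OldAcetate, with all 3 groups overlapping.

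Acaca had 4 regions, the most of any of the 10 genes. Its promoter region lay at the 5′ end, and the others lay far inside the gene, up to 70828 bp from that end. The gene's principal transcript starts 43450 bp from that end, in none of the 4 regions, so the promoter region held no exon of it. The region of 17000 bp (chr11:84178001-84195000) held exon 2 of the gene's principal transcript and the starts of 3 GENCODE transcripts between 50159 and 50186 bp. It had 45.1 and 37.2 RPM for Young, 35.6 and 31.0 for Old and 43.7 and 42.5 for OldAcetate. Both Old libraries lay below the other 4, as at 37.3% of all regions in RPM as given. On the scaled values this did not hold. The ratio of the 17000 bp region to the promoter region, another of those ratios, was 4.89 and 4.14 for Young, 3.67 and 3.39 for Old and 4.48 and 4.86 for OldAcetate. Old was below both other groups without overlap (-0.34 against Young and 0.40 for OldAcetate against Old on the log2 scale). An exact permutation test of each (two-sided) again gave its minimum, p = 0.333. The promoter region, the denominator of this ratio, held 21 to 29 reads in a library, a counting error of 18.6 to 21.8%, and how often other pairs of regions differ in this way was not tested.

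The next Acaca region (chr11:84195001-84196000) spanned 1000 bp, held exon 3 and the RefSeq start 65766 bp into the gene whose upstream bases are shown above, and had the code Y. It had 13 and 6 reads for Young (4.28 and 2.45 RPM), 8 and 5 for Old (3.70 and 1.99 RPM) and 0 and 5 for OldAcetate (0 and 2.09 RPM). The 0 allows up to 1.01 RPM, the value of 3 reads in that library. OldAcetate vs Old was -1.75 scaled (SE 0.62, adjusted p = 0.712) and OldAcetate vs Young -1.61 (SE 0.62, adjusted p = 0.964), and without OldAcetate replicate 1 these were -0.55 and -0.41. The intronic region beyond it (chr11:84196501-84200500) had 14.5 and 13.1 RPM for Young, 12.5 and 7.56 for Old and 8.06 and 9.18 for OldAcetate. At both of these regions OldAcetate lay below Young without overlap in RPM as given, beside 29.8% of all regions and 58.5% of the 1139 regions with the code Y. If that code names the groups in which a region was found, a high Young value and low values in the other groups are part of what gave the 1000 bp region its code, so its comparisons with Young are a description.

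**Figure D5:**
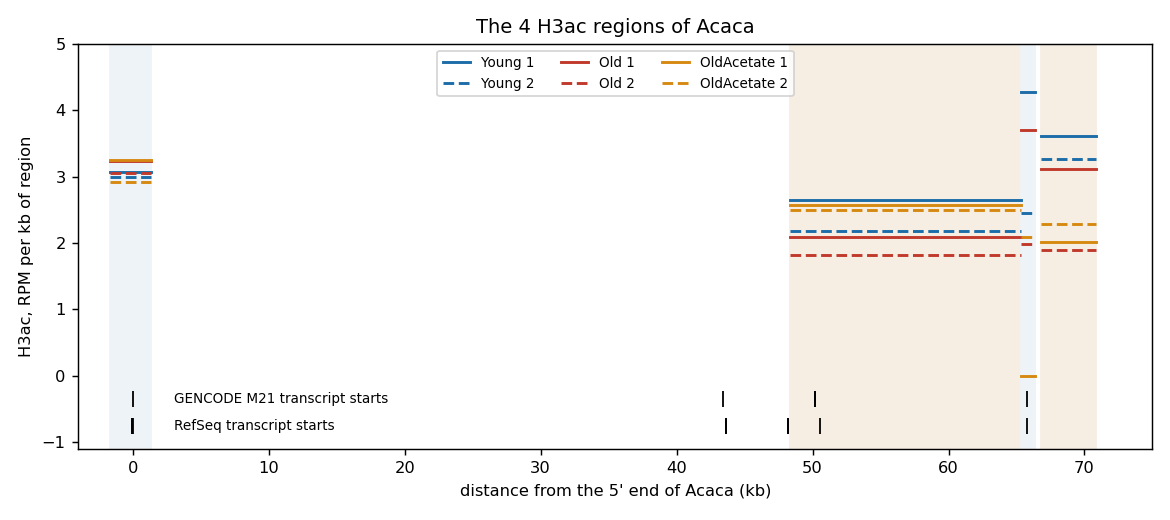
H3ac in RPM per kb (y axis) over the 4 Acaca regions, drawn along the distance from the 5′ end of the gene in kb, 1 line per library (solid replicate 1, dashed replicate 2). Ticks below 0 mark annotated transcript starts. The 6 libraries lie close together at the 5′ end and spread apart in the region of 1000 bp, where OldAcetate replicate 1 is at 0.

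The remaining 3 regions lay at the 3′ side of a member and at the start of its neighbour. The region at Coq10a, a coenzyme Q binding protein, beyond Cs (chr10:128367001-128370000, code AC+Y) had 10.5 and 11.8 RPM for Young, 6.01 and 5.57 for Old and 11.1 and 11.3 for OldAcetate. Old was near 6 RPM and the other groups near 11, with no overlap between them. It fell by 0.89 on the log2 scale in Old vs Young in RPM as given (SE 0.31, adjusted p = 0.0490 by limma), where 9.5% of all regions were called lower and 11.3% of those with the code AC+Y. As at Crat, the code lacks O, so a low Old value may be built into how the region was listed, and the call is no independent sign of a difference. The scaled value was -0.54 (SE 0.29, adjusted p = 0.894), and with values as given the call held without Old replicate 1 and was lost when any of the other 5 was left out, at adjusted p up to 0.246. In OldAcetate vs Old it was at 0.89 as given (SE 0.31, adjusted p = 0.124) and 0.65 scaled (SE 0.29, adjusted p = 0.777).

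At Klhl11 beyond Acly (chr11:100470501-100473500) the values were 7.90 and 10.2 RPM for Young, 10.2 and 7.16 for Old and 9.07 and 10.4 for OldAcetate, and the groups overlapped. At Gss, the glutathione synthetase gene beyond Acss2 (chr2:155589501-155594000), they were 11.8 and 13.5 RPM for Young, 9.24 and 9.94 for Old and 14.1 and 9.59 for OldAcetate, with Old below Young. In all, 4 of the 6 other regions were lower in Old than in Young without overlap in RPM as given, beside 60.2% of all regions.

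Neighbouring steps of acetyl-CoA metabolism were read from a list of 39 genes, of which 38 had a promoter region. The exception was Acacb, the mitochondrial counterpart of Acaca. On the scaled values 0 of the 38 were called in each of the 3 comparisons. By unadjusted p under 0.05 the numbers were 0, 3 and 1, where 1354, 1524 and 1242 of all 24431 regions passed. The medians were -0.01, 0.05 and 0.08. In RPM as given, 1 of the 38 was called in Old vs Young, where 11.2% of all promoter regions were called lower. It was Me3, the mitochondrial NADP-dependent malic enzyme (-0.57, SE 0.17, adjusted p = 0.0289 by limma). In the same comparison 36 of the 38 differences were below 0, beside 93.8% of all promoter regions. The median of the 38 was -0.36, beside -0.36 over all promoter regions. The 11 partners and regulators of pyruvate dehydrogenase had a median of -0.44 and the 13 genes of citrate, isocitrate and malate steps a median of -0.39. The 5 users of cytosolic acetyl-CoA with a region were at -0.13 and the 9 genes of carnitine and acetate handling at -0.32. In OldAcetate vs Old, none of the 38 was called in RPM as given, 35 were above 0 (89.9% of all promoter regions) and their median was 0.29.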

How the data were processed

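H3ac CUT&RUN values of 6 MSC libraries, 2 for each of Young, Old and OldAcetate, were analysed. The authors deposited 1 table of RPM for regions called jointly. It is named as RPKM, but 100% of the values were whole multiples of the RPM of 1 read (tolerance 0.01) whatever the region length, so whole reads were recovered. Per the labels, Bowtie2, Picard and mm10 were used, with no role stated, and the region caller is not given in the sources used here. Yeast DNA was added to the reactions, and its use for scaling is not stated. A scaling by library total keeps a shift shared by all regions, so results are given with and without it.

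Genes were taken from GENCODE M21. All 24431 regions and 6 libraries entered 1 limma 3.58.1 fit (R 4.3.3) on log2(RPM + 0.5), median-centred per library, with eBayes using trend and robust and Benjamini-Hochberg adjustment. The log2 fold changes understate those of low regions. The deposited regions were chosen by the authors with these libraries, and the groups share an estimate of spread. The test was tested on simulated data with 200 changed regions in Old vs Young. It called 18% of those changed 1.5-fold, 66% at 2-fold and 93.5% at 3-fold, so smaller differences would mostly be missed. Of the marker genes chosen, 1 is not reported here.

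Every region within 5 kb of a member gene is named, and other genes only from the listed groups. Ratios of regions were chosen after the values were seen. The members and lists were chosen with earlier results of these data known. Other settings tried were no scaling, quantile normalization, pseudocounts of 0.1 and 1, a fit without the 25% of regions lowest in signal, a replicate block, compared libraries only, eBayes without trend and robust, edgeR 4.0.16 on recovered reads, windows of 0 and 10 kb, and omission of each library. Figures were drawn with matplotlib 3.10.9.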

Additional observations from a re-analysis of the deposited data

How the results depend on the processing

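Relative to all regions, none of the 16 regions was called under any of the alternatives that kept a scaling. Without scaling, limma called 2327 regions of Old vs Young (2 of the 16) and 76 of OldAcetate vs Old, and edgeR without factors 2524 (2 of the 16) and 21. With scaling, the 2 regions called in Old vs Young became 5 by quantile normalization, 1 with the compared libraries only, 0 without trend and robust (1433 at an unadjusted p under 0.05) and 5 by edgeR with RLE factors. The 0 of OldAcetate vs Old became 2 by quantile normalization and 2 with the compared libraries only. Leaving out 1 library gave 0 to 9, 0 to 3 and 0 to 4 called regions in Old vs Young, OldAcetate vs Old and OldAcetate vs Young. The 9 and the 4 came without Young replicate 2, as did the 3.

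The deviations of same-numbered libraries had correlations of 0.01, -0.03 and -0.04 between groups. This shows no sign of pairing by replicate number but cannot exclude it, since the deviations of single regions include much counting error. A fit with the replicate number as a block called 2, 0 and 0 regions (1265, 1436 and 1153 by unadjusted p under 0.05). It changed no call at the 16 regions.

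Without scaling, these differences changed sign, by limma and by edgeR: in Old vs Young Acss2 (-0.19 and -0.19), Cs (-0.26 and -0.27), the 17000 bp Acaca region (-0.30 and -0.32), the 1000 bp Acaca region (-0.22 and -0.31) and the Klhl11 region (-0.0691 and -0.0627), in OldAcetate vs Old Acss1 (0.0693 and 0.0575), Cs (0.16 and 0.17) and the Klhl11 region (0.18 and 0.18), and in OldAcetate vs Young Cs (-0.10 and -0.10) and Mpc2 (-0.0440 and -0.0557). Differences near 0 also changed sign for Mpc2 in Old vs Young (0.00139 by edgeR with RLE factors), Cs in OldAcetate vs Young (-4.06e-05 by quantile normalization) and the Gss region in OldAcetate vs Young (0.00058 with a pseudocount of 1, 0.0075 by quantile normalization and 0.0625 by edgeR with RLE factors). No other alternative that keeps all 6 libraries changed a sign.

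Omission of 1 library turned the sign of 22 of the 48 scaled differences, none of them called. In Old vs Young the ranges were -0.34 to 0.0086 for Slc25a1, -0.70 to 0.17 for Acss1, -0.71 to 0.10 for Crat, -0.13 to 0.12 for Mpc2, -0.20 to 0.14 for the Gss region, and -0.0020 to 0.11, -0.18 to 0.45 and -0.41 to 0.15 for the Acaca regions of 17000, 1000 and 4000 bp. In OldAcetate vs Old they were -0.0693 to 0.28 for Slc25a1, -0.24 to 0.42 for Acly, -0.61 to 0.27 for Acss1, -0.0660 to 0.21 for Mpc2, -0.22 to 0.28 for the Gss region and -0.24 to 0.12 for the Klhl11 region. In OldAcetate vs Young they were -0.15 to 0.0288 for Slc25a1, -0.51 to 0.16 for Acly, -0.0046 to 0.0360 for Cs, -0.29 to 0.0483 for Mpc1, -0.0691 to 0.21 for Mpc2, -0.26 to 0.25 for the Gss region, -0.0496 to 0.28 for the Coq10a region and -0.0357 to 0.48 for the Klhl11 region. Library omission with values as given was chosen after seeing the data. It called none of the 16 regions without Young replicate 1, OldAcetate replicate 1 or OldAcetate replicate 2, Slc25a1 and Crat in Old vs Young without Young replicate 2 (8.69% of all regions were called lower), Acss1 and Crat in Old vs Young without Old replicate 2 (2.01%), Crat in OldAcetate vs Old without Old replicate 2 (0.422% called higher) and the Coq10a region in Old vs Young without Old replicate 1 (13.3% called lower). Removal of the lowest 25% of regions dropped 4 of the 16 regions.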
